A study of Mus musculus with 11 samples.

Results

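The channel genes described here are those of the voltage-gated and leak potassium channels, the sodium channels, the calcium channels and the HCN channels, with their accessory subunits, in intermediate progenitors (IPs) of the Tbr2 mutant mouse cortex. They were chosen by gene symbol: every array probe whose annotated symbol begins with Kcn (other than Kcnq1ot1), Scn followed by a digit, Cacna, Cacnb or Hcn, together with Abcc8 and Abcc9. The rule gave 250 of the 45281 probes on the array, for 117 of the 19057 named genes. The rule reads symbols only, but it and the lists used below were chosen with earlier results of these data known.

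The RNA came from EGFP-labeled IPs, also called basal progenitors, isolated by FACS from Tbr2 conditional knockout embryonic cortex. There were 5 samples at embryonic day 13 (E13) and 6 at embryonic day 16 (E16), each hybridized to an Illumina bead array and named here by stage and array number. All 11 samples carried the mutation, with a Tbr2-EGFP reporter and floxed Tbr2 (Tbr2 fl/fl) alleles as the study describes the mice. The study made its conditional knockout with Emx1-Cre, which acts in progenitors of the dorsal telencephalon, but the sources used here do not name the Cre line for the array samples. No control array entered these comparisons, which set E16 against E13 within the mutant, and no value below measures an effect of the mutation. The study names 3 different litters without saying whether per stage or for E16 alone, and the labels do not assign litters to arrays. The p-values thus measure the spread between these samples, which may be smaller than that between litters.

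Ion channels set the membrane potential and its changes. Potassium channels hold or restore a negative potential, sodium channels carry the rising phase of the action potential, calcium channels couple depolarization to calcium entry, and HCN channels pass a depolarizing current that opens on hyperpolarization. Each pore is built of alpha subunits, and accessory subunits (beta, alpha2-delta, KChIP, sulfonylurea receptor) set how many channels reach the surface and how they gate. In the embryonic cortex, progenitors are coupled and electrically quiet, and channel genes come on as their daughter cells become neurons.

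As regulatory context, the 250 bases before the RefSeq start (build GRCm38.p6) are shown for Kcnk2 and Hcn2, which were higher at E16, and for Cacna2d3, which was lower, since these genes had the widest stage differences among those whose start was in the sequence table used. Letters run 5′ to 3′ on the gene's strand, and capitals mark E-boxes (CANNTG, which reads the same on both strands), the motif class bound by bHLH factors. Kcnk2 has 4 annotated starts in that table, of which the first listed is shown.
Kcnk2 chr1:189402274-189402523, minus strand: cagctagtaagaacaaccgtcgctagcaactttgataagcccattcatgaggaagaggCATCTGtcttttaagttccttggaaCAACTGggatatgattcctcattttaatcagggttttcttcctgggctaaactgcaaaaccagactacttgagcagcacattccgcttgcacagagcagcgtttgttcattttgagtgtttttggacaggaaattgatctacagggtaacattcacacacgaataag
Hcn2 chr10:79716384-79716633, plus strand: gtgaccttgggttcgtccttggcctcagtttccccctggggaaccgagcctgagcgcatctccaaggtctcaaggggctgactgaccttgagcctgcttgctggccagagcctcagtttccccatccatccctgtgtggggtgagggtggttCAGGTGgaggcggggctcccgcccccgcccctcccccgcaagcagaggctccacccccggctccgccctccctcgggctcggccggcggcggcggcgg
Cacna2d3 chr14:29721865-29722114, minus strand: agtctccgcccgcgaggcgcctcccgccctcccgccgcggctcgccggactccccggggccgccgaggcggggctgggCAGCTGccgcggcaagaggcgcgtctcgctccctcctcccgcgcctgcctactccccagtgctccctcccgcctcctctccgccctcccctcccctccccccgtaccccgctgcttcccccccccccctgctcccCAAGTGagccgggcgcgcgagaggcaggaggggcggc
The Kcnk2 stretch held 2 E-boxes and 5 CpG dinucleotides at 42.4% GC. The Hcn2 stretch held 1 E-box and 16 CpGs at 70.4% GC, and that of Cacna2d3 held 2 E-boxes and 30 CpGs at 80% GC. Of the 117 channel genes, 88 had such a stretch, and 68.2% of these held an E-box, beside 66% of the 27025 genes in the table. The T-box motif AGGTGT, searched on both strands, was in 15.9% of the channel genes' stretches and 12% of all, and in none of these 3. Among the 28 tested channel genes with such a stretch, 57.1% held an E-box and 1 the T-box motif. A match is a letter count, and binding was not measured.

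The arrays were similar in depth of detection, with between 19757 and 20854 probes at a detection p-value under 0.05. They differed in brightness: the median deposited signal was 266 (array 61) to 334 (array 65) at E13 and 181 (array 11) to 422 (array 95) at E16. Array-to-array correlations of log2 signal were 0.954 to 0.985 within a stage and 0.931 to 0.969 between stages. The RefSeq-annotated probe of Eomes, the gene that encodes TBR2, was detected on all 11 arrays, at 2344 to 2728 normalized signal units at E13 and 1049 to 2702 at E16 (log2 fold change -0.43, adjusted p = 0.123). A second Eomes probe, ILMN_2570496, was detected on all 11 arrays at 1060 to 1565 at E13 and 313 to 1269 at E16 (log2 fold change -0.79, adjusted p = 0.0567). Where the probes lie relative to the deleted part of the gene was not known, so they do not check the deletion. Of 11 IP markers, 10 were detected on every array and Btg2 on none, with summed signals of 32890 to 38157 at E13 and 21390 to 40359 at E16, and of the 10 tested, Dll1 (-1.24) and Dll3 (-1.64) were lower and Sstr2 (1.08) higher at E16 on the log2 scale. Projection neuron markers were detected at both stages (summed signals 58307 to 71591 and 51072 to 68641). E13 array 64 stood apart from the other 10 in markers of several other cell types: it detected 6 erythroid, 9 interneuron, 11 endothelial and pericyte, 7 meningeal and 5 microglial genes, against at most 4, 7, 5, 2 and 2 on any other array. Leaving it out left 6 higher and 2 lower channel probes, with Kcnh2 no longer called. At least 3 of the 4 Xist probes were detected on 2 of 5 E13 arrays and on 5 of 6 E16 arrays, and 1 of the 4 on a further E13 array, so Xist detection was not balanced between the stages.

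Fewer channel probes than array probes in general were detected: 54 of 250 (21.6%) on all 11 arrays, against 36.2% of all probes. A further 15 were detected on every array of 1 stage but not of the other, 50 on some arrays, and 131 on none. By gene, 38 of 117 had a probe detected on all arrays, 11 on all arrays of 1 stage at most, 29 on some arrays and 39 on none. Detected pore-forming genes included Scn1a, Scn2a, Scn3a and Scn8a of the sodium channels and Cacna1a, Cacna1b, Cacna1g and Cacna1h of the calcium channels. The beta subunit genes Cacnb1, Cacnb2 and Cacnb4 and the sodium channel beta genes Scn2b, Scn3b and Scn4b were each detected on all arrays. The two-pore-domain family was the reverse, with 8 of its 14 genes on no array, and 6 of the 10 electrically silent Kv genes were on no array. No probe of the voltage-gated pore genes Kcnq1, Kcnq3 and Kcnq5 was detected on all 11 arrays. A probe on no array gives no evidence about its gene beyond this detection limit, since probes differ in efficiency.

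**Figure D1:**
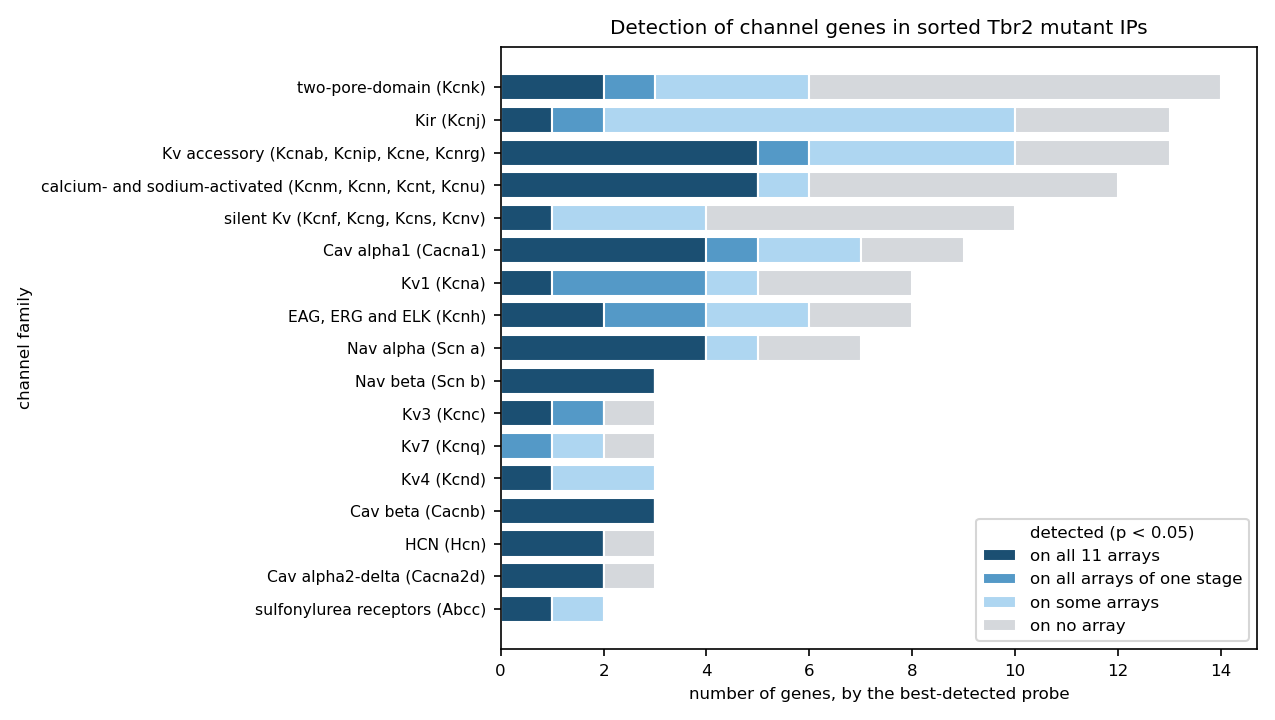
Number of channel genes in each family (bars, x axis) by how widely the best-detected probe was detected: all 11 arrays, all arrays of 1 stage, some arrays or no array. All 3 Cav beta genes and all 3 Nav beta genes were on all arrays, whereas 8 of 14 two-pore-domain genes were on none.

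The detected channel probes were dimmer and more variable than the rest. Their median normalized signal was 131.9, against 302.1 for all 16411 probes detected on all arrays, and 42.6% had a mean signal under 100, against 23.7% of all. The median standard deviation within a stage was 0.34 on the log2 scale for channel probes and 0.26 for all. Brightness depends on the probe as well as on the RNA, so these figures describe the probes, and levels of different genes are not compared.

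Between E13 and E16, probes of 8 channel genes were called: those of Abcc8, Kcnk2, Hcn2, Cacnb4 and Kcnab3 were higher at E16, and those of Cacna2d3 and Kcnh2 and 1 of the 2 tested probes of Cacna2d1 were lower. A probe was called when its adjusted p-value was under 0.05 and its difference over 1.5-fold (limma, Benjamini-Hochberg over 16411 probes). By this rule 6 of 54 channel probes were higher, beside 5.17% of all probes, and 3 of 54 were lower, beside 6.09% of all probes. In 6 of 54 channel probes (11.1%) the E13 and E16 arrays did not overlap, beside 11.7% of all probes. The shares called lower and separated were thus near those of the array, and the share called higher, 11.1%, was above it on a count of 6. Because the samples are bulk RNA, fewer cells of a type and less RNA per cell cannot be told apart in any of these differences.

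The largest rise was that of Abcc8, the sulfonylurea receptor that pairs with Kcnj11 in ATP-sensitive potassium (KATP) channels, which link the potential to the energy state of the cell. Its probe ILMN_2645526 read 63.0, 59.2, 69.6, 47.6 and 33.0 normalized signal units on the 5 E13 arrays. On the E16 arrays the lowest value was 362, the median 491 and the highest 684. Every E16 array was thus above every E13 array, and the stage means differed by 9.15-fold on the fitted log2 scale (log2 fold change 3.19, SE 0.22, adjusted p = 1.5e-06). The call held in all 23 alternative settings, with a log2 fold change of 2.86 to 3.29. The other Abcc8 probe, ILMN_1224187, is annotated to the same transcript and was detected on no array.

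The pore partner of Abcc8 in KATP channels is Kcnj11, its neighbor on chromosome 7 with 0 protein-coding genes between them in RefSeq. The Kcnj11 probe was detected on 1 of 5 E13 arrays and on 6 of 6 E16 arrays. Its deposited signals, which were not normalized, were 16.1, 15.03, 15.2, 5.6 and 24.0 at E13, and had a lowest value of 20.4, a median of 36.7 and a highest of 55.7 at E16. The stages overlapped by 1 array each, and most E13 values could not be told from background. The other KATP pair, Abcc9 and Kcnj8, typical of pericytes and smooth muscle, are neighbors on chromosome 6. Of 4 Abcc9 probes, 3 were detected on no array and 1 on 1 E16 array, and the Kcnj8 probe was detected on 1 E16 array. Endothelial and pericyte markers summed to 286 to 872 at E13 and 270 to 336 at E16. Of the 15 listed, Cspg4 and Esam were detected on all 11 arrays and Notch3 on 5 of each stage, Rgs5, Anpep and Higd1b on none, and the others on at most 2 arrays.

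Kcnk2 encodes TREK-1, a leak channel opened by stretch and lipids that holds cells near the potassium potential. Its probe ILMN_1226055 read 247, 207, 247, 169 and 284 at E13. At E16 the lowest value was 430, the median 572 and the highest 874. The stages did not overlap, and the rise was 2.72-fold (log2 fold change 1.45, SE 0.19, adjusted p = 1.4e-04). The call held in all 23 alternatives. The other Kcnk2 probe, ILMN_2651369, was detected on 0 of 5 E13 and 4 of 6 E16 arrays. Of the other two-pore-domain genes, Kcnk10 (TREK-2), the brightest uncalled member, differed by 0.03 on the log2 scale (SE 0.22), and its sign turned in 6 of the 23 alternatives. Both probes of Kcnk1 (TWIK-1), a weak leak channel, were detected on 6 of 6 E16 arrays. At E13 they were detected on 1 and 4 of 5 arrays.

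Hcn2 carries the hyperpolarization-activated current. Its probe ILMN_2672624 read 59.3, 26.5, 58.0, 66.8 and 48.3 at E13, with array 40 the lowest. The E16 values had a lowest of 58.7 on array 11, a median of 110 and a highest of 185. Array 11 lay within the E13 range and the other 5 E16 arrays lay above it. The difference was 2.17-fold (log2 fold change 1.12, SE 0.29, adjusted p = 0.0166). The call was lost in 3 of 22 alternatives, among them leaving out E13 array 40 and E16 array 80 together, and the adjusted p reached 0.0933 at most.

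Among the other HCN genes, Hcn3 was detected on all arrays by its brightest probe and did not pass the test. Probe ILMN_2808472 read 398 to 589 at E13 and 528 to 670 at E16, a log2 fold change of 0.25 (SE 0.12, adjusted p = 0.150). A dimmer Hcn3 probe, ILMN_2482138, was detected on 4 of 5 E13 and 6 of 6 E16 arrays, and the last on 3 arrays of each stage. The only Hcn4 probe was detected on no array.

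Cacnb4, a cytoplasmic beta subunit that brings calcium channel pores to the membrane, was the only member with more than 1 called probe. Probe ILMN_1223194 read 46.0, 55.5, 53.8, 67.4 and 64.1 at E13, and from 86.8 through a median of 103 to 134 at E16. The log2 fold change was 0.88 (SE 0.16, adjusted p = 0.0020), and the call held in all 23 alternatives. Probe ILMN_3123491 read 212, 242, 288, 264 and 261 at E13, and from 309 through a median of 397 to 456 at E16. Neither probe's stages overlapped. The rise of the latter was 0.61 (SE 0.13, adjusted p = 0.0057), close to the fold limit, and it fell under that limit without E13 array 37, without E16 array 11 or without E16 array 15. The last tested probe, ILMN_3047749, overlapped between stages (38.7 to 99.8 and 52.9 to 145), with a log2 fold change of 0.50 (SE 0.29, adjusted p = 0.254). All 3 tested probes were thus shifted upward, and 2 of them passed the test. A further Cacnb4 probe, ILMN_1230917, was detected on no array. The other beta genes did not, Cacnb1 at 0.11 (SE 0.20) and Cacnb2 at -0.15 (SE 0.16).

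Kcnab3, a cytoplasmic Kv beta subunit, was higher at E16 by a small margin. Its probe read 54.3, 28.9, 61.3, 58.2 and 59.1 at E13, with array 40 far below the rest, and 67.2 at the lowest, 77.6 at the median and 98.8 at the highest at E16. The stages did not overlap (log2 fold change 0.67, SE 0.21, adjusted p = 0.0385). The call was lost in 11 of 23 alternatives, among them leaving out E13 array 37 or 40, or E16 array 15, 80, 91 or 97. Its adjusted p was between 0.0168 and 0.110 over the alternatives. Its relative Kcnab2 differed in the opposite direction, from 281 to 494 at E13 to between 210 and 339 at E16 (log2 fold change -0.51, SE 0.17, adjusted p = 0.0495), under the fold limit, which it passed without E13 array 40 or without E16 array 80.

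**Figure D2:**
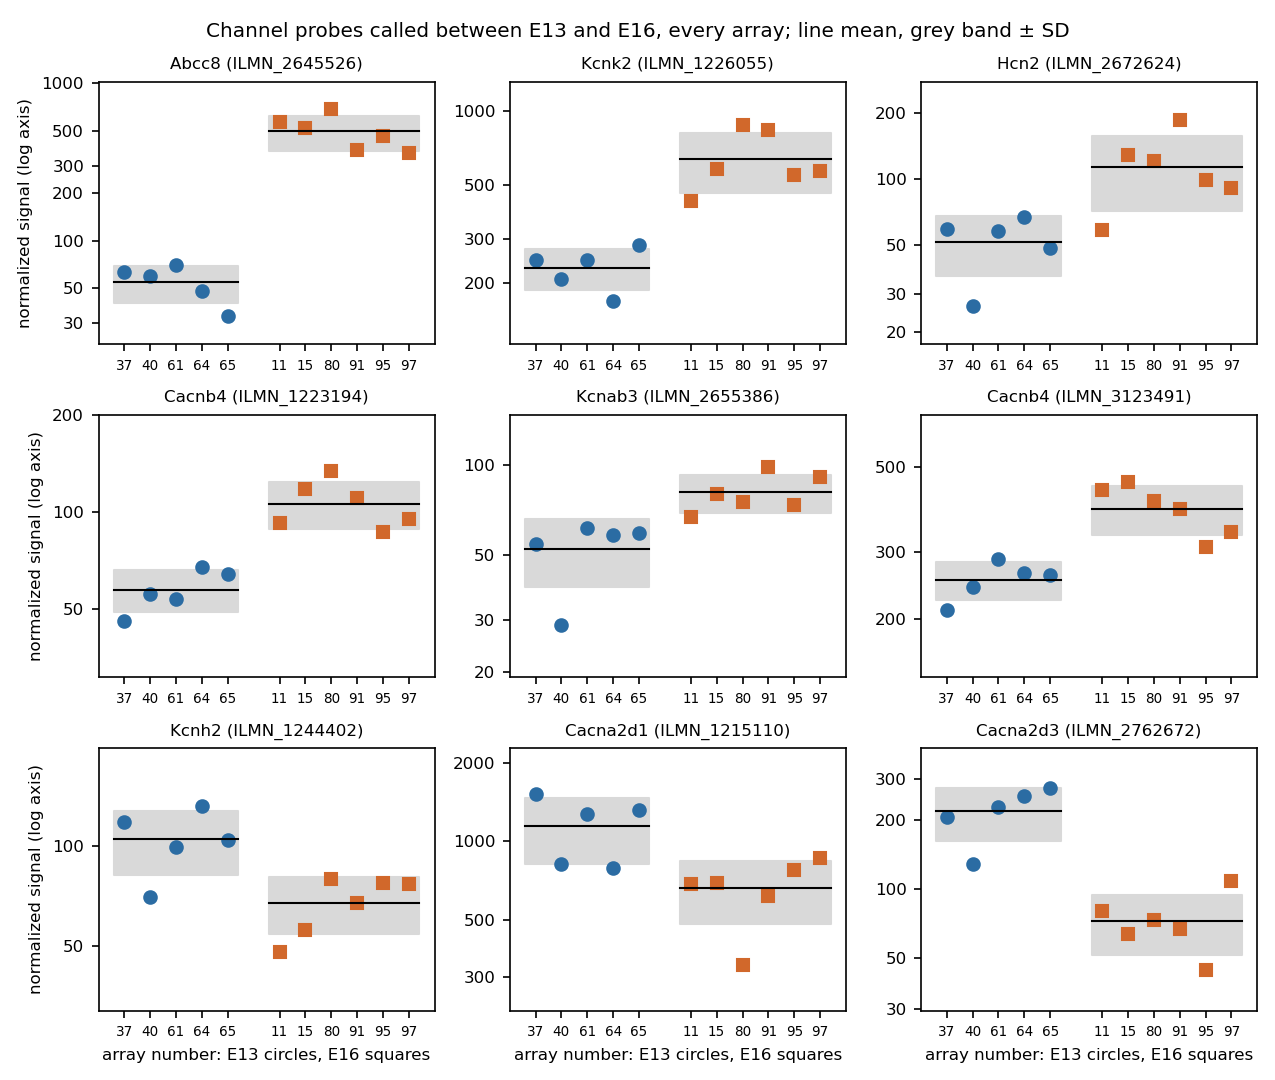
Normalized signal (log axis) of the 9 called channel probes on each of the 5 E13 arrays (circles) and 6 E16 arrays (squares), with the mean (line) and SD (grey band) of each stage. Abcc8 and Kcnk2 separated the stages fully, whereas Hcn2 overlapped through E16 array 11 and Kcnab3 separated with E13 array 40 lowest.

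The 3 probes that were lower at E16 included both detected genes of the alpha2-delta family, extracellular subunits that raise the surface level of calcium channels and also act in synapse formation. Cacna2d3 read 205, 128, 226, 254 and 274 at E13, and 44.2 at the lowest, 69.8 at the median and 108 at the highest at E16. Its stages did not overlap, and the fall was 3.01-fold (log2 fold change -1.59, SE 0.24, adjusted p = 4.0e-04). The call held in all 23 alternatives. It was the only tested channel probe lower at E16 whose stages were separate.

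For Cacna2d1 the probes went apart. Probe ILMN_1215110, annotated to a full-length cDNA clone, read 1521, 820, 1278, 788 and 1319 at E13, and 336, 687 and 862 as the lowest, median and highest at E16 (log2 fold change -0.80, SE 0.24, adjusted p = 0.0305). Its stages overlapped through E13 arrays 40 and 64. Probe ILMN_2752030, annotated to the RefSeq transcript, read 1263 to 2403 at E13 and 1219 to 3402 at E16 (log2 fold change 0.17, SE 0.25, adjusted p = 0.702). The call of the former was lost without E13 array 37, 61 or 65, without E16 array 91, or with Xist detection as a covariate, in 7 of 23 alternatives in all. A direction for Cacna2d1 as a gene cannot be given from probes that differ in this way.

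Kcnh2 encodes ERG, a potassium channel with slow closing that damps firing. Probe ILMN_1244402 read 119, 70.2, 99.1, 132 and 104 at E13, and 47.8 at the lowest, 72.2 at the median and 79.7 at the highest at E16. The stages overlapped through E13 array 40 alone (log2 fold change -0.63, SE 0.20, adjusted p = 0.0404). A brighter Kcnh2 probe, ILMN_3123864, read 159 to 266 at E13 and 122 to 175 at E16, a log2 difference of -0.44 (SE 0.16, adjusted p = 0.0754). The call of the former was lost in 13 of 23 alternatives, among them leaving out E13 array 37, 61, 64 or 65, or E16 array 11, 15 or 91. Of the other Kcnh2 probes, ILMN_2642435 was detected on no array and ILMN_3048027 on 1 E16 array. Kcnh7, another ERG gene, had the opposite sign without passing the test, at 70.7 to 158 at E13 and 111 to 330 at E16 (log2 fold change 0.75, SE 0.27, adjusted p = 0.0681). It was called only where E16 array 80 was left out, alone or with E13 array 40.

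Marker sums of Cajal-Retzius cells, radial glia and meninges were lower at E16, with no overlap between stages. Cajal-Retzius cell markers summed to 10824 to 28539 at E13 and 3004 to 9940 at E16 (9 listed, 4 of 6 tested lower, Reln and Lhx1 among them), with Nhlh2 on no array. Radial glial markers summed to 5079 to 8064 and 3155 to 4618, of which 3 of 10 tested were lower and 1 higher (Slc1a3). Their sum weighs the brightest genes most, and their mean log2 signal over genes overlapped between stages. It was 7.22 to 8.37 at E13 and 6.88 to 7.70 at E16. Meningeal markers summed to 712 to 1547 and 128 to 169. Of 8 genes, Crabp2 was detected on 5 arrays of each stage and Dcn on 4 and 1. Foxd1 was on no array and the other 5 were each on 1 E13 array. E13 array 64 detected 7 of the 8, and the other E13 arrays detected none but Crabp2 and Dcn, so the meningeal sum rests on few genes. Interneuron markers summed to 329 to 4623 and 343 to 1141, with Dlx5 on no array. Projection neuron markers overlapped, and 1 of 11 tested was higher. The part of these cells in the channel differences was not tested.

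Over the tested channel probes, called and uncalled together, signals leaned slightly upward at E16. Of all 54 tested channel probes, 43 had a positive difference and the median log2 fold change was 0.19, where 51.2% of all probes were positive with a median of 0.01. E13 array 40 was the lowest E13 array for 22 of the 54 channel probes (40.7%), against 21.1% of all probes. Leaving it out lowered the median to 0.13, and without E13 array 40 and E16 array 80 together it was 0.13. In turn, E16 array 95 was the lowest E16 array for 18 of the 54 (33.3%), against 16.8% of all probes, and leaving it out raised the median to 0.25. The median was between 0.13 and 0.28 over the 11 fits that each left out 1 array. Of the 54, 20 had an unadjusted p under 0.05 and 11 an adjusted p under 0.05.

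**Figure D3:**
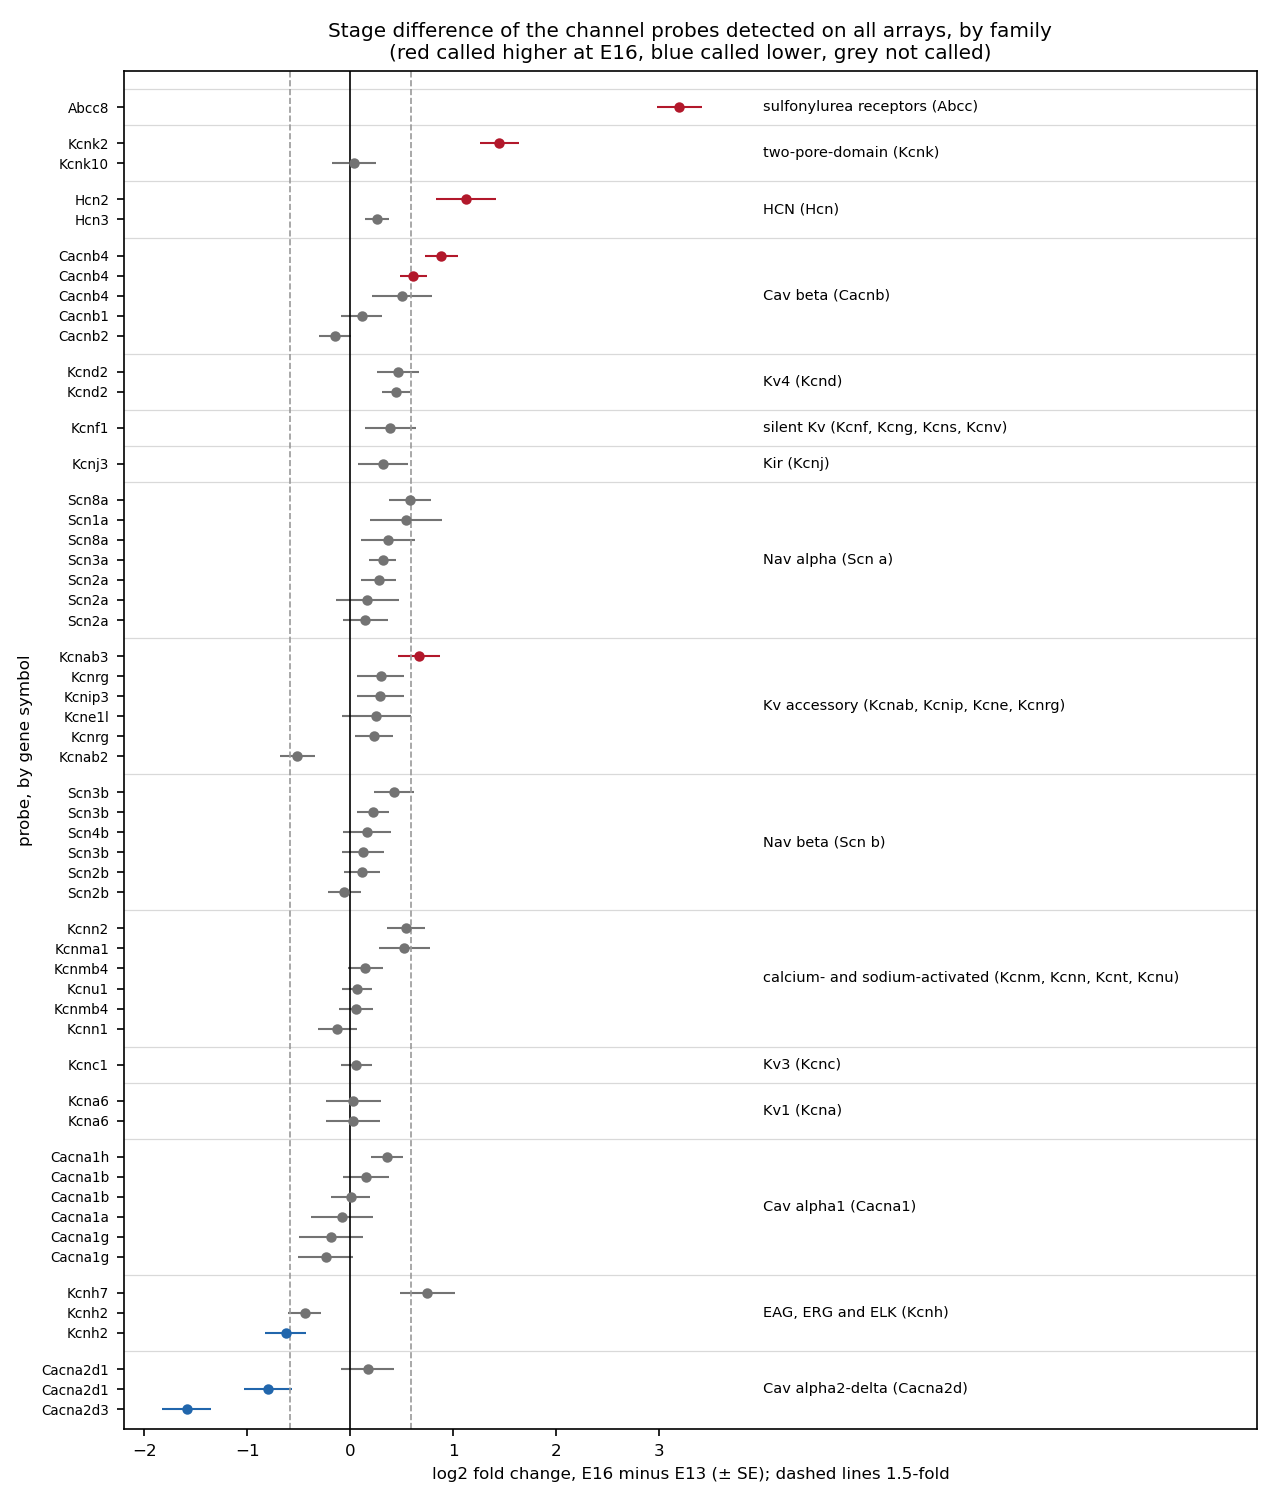
Log2 fold change, E16 minus E13, with its SE for each of the 54 channel probes detected on all arrays, grouped by family; dashed lines mark 1.5-fold. Red and blue points are probes called higher and lower at E16, and the grey points include all 13 sodium channel probes.

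The sodium channel genes did not pass the test in either direction. All 7 alpha subunit probes were positive, from 0.14 for a Scn2a probe to 0.57 for a Scn8a probe. Scn3a, the pore that prevails before birth, was the brightest of the uncalled alpha probes, at 1291 to 1644 at E13 and 1274 to 2121 at E16 (log2 fold change 0.31, SE 0.13, adjusted p = 0.117). The Scn8a probe ILMN_2721059, for a pore of the axon initial segment, came nearest the limit (adjusted p = 0.0687), and was called without E16 array 97. Scn1a was at 616 on E16 array 11, with the other E16 arrays at 114 to 278 and the E13 arrays at 110 to 209. Of the beta subunit probes, 5 of 6 were positive, and those of Scn2b had opposite signs (-0.06 and 0.11).

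The calcium channel pores likewise showed no call. Cacna1h, a low-voltage-activated T-type pore, read 1193 to 1693 at E13 and 1215 to 2308 at E16 (log2 fold change 0.36, SE 0.15, adjusted p = 0.128). Both probes of Cacna1g, another T-type pore, were slightly lower (-0.24, SE 0.27, and -0.19, SE 0.31). Cacna1a was at -0.08 (SE 0.30) and the Cacna1b probes were at 0.15 (SE 0.22) and 0.00 (SE 0.19).

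Among voltage-gated potassium channel pores outside the Kcnh family described above, Kcnd2, a source of A-type current, came closest to a call. Its probe ILMN_2644229 read 257 to 445 at E13 and 410 to 569 at E16 (log2 fold change 0.44, SE 0.14, adjusted p = 0.0406), under the fold limit. Its other probe gave 0.46 (SE 0.20, adjusted p = 0.131) and was called without E16 array 80. Kcna6 differed by 0.03 at both probes, and Kcnc1, a pore of fast-firing cells, by 0.06 (SE 0.15). The accessory genes Kcne1l and Kcnip3 were at 0.25 (SE 0.33) and 0.29 (SE 0.23), and the silent subunit Kcnf1 at 0.39 (SE 0.25). In the calcium-activated group, Kcnma1 of the BK channel was at 0.52 (SE 0.25, adjusted p = 0.166) and Kcnn2 of the SK channel at 0.54 (SE 0.18, adjusted p = 0.0571), which was called without E16 array 11 or 91. Kcnn1 was at -0.13 (SE 0.19), and both probes of the BK beta gene Kcnmb4 were at 0.06 and 0.14. Kcnj3, a G-protein-gated inward rectifier, was at 0.31 (SE 0.24).

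For 13 genes more than 1 probe was tested. The probes of 11 of them had the same sign, and those of Cacna2d1 and Scn2b did not. In each of the 3 genes with a call (Cacnb4, Kcnh2 and Cacna2d1) at least 1 tested probe was not called. The spread between probes of a gene was from 0.00 for Kcna6 to 0.97 for Cacna2d1 on the log2 scale.

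The 15 probes detected on every array of 1 stage only are given by their deposited signals, without a test, because they entered through the stage where they were detected. Deposited signals were not scaled between arrays, so their ranges and overlaps also carry array brightness. A probe of Kcnc4, a fast Kv pore, was detected on 5 of 5 E13 arrays and 0 of 6 E16 arrays. It read 20.9, 62.5, 25.5, 39.96 and 34.2 at E13, and at E16 2.8 at the lowest, 9.6 at the median and 13.7 at the highest. Because the E16 signals were not above background and the probe entered through E13, no size of difference is given. The other Kcnc4 probe, ILMN_1242025, was detected on no array. Kcna1, a pore of axons, read 24.4 to 58.6 at E13 and 6.8 to 12.01 on 5 E16 arrays, with 49.6 on E16 array 15. Kcnh1 (EAG) read 20.6 to 63.7 at E13, and was detected at E16 on array 15 alone, at 22.0. Kcnip1, a KChIP subunit of Kcnd channels, read 38.9 to 79.8 at E13 and 10.9 to 29.99 at E16, with no overlap. The other Kcnip1 probe, ILMN_2968369, was detected on 3 of 5 E13 and 0 of 6 E16 arrays. Another Cacna2d1 probe, ILMN_2568719, was detected on 5 of 5 E13 and 3 of 6 E16 arrays.

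Other probes entered through detection on all E16 arrays, which by itself favors a higher E16 signal. Kcnq3, a pore of the M current, read 14.5 to 28.5 at E13 and 36.96 to 88.4 at E16, with no overlap. The brighter Kcnk1 probe read 14.2 to 48.3 at E13 and 49.1 to 118 at E16, again with no overlap. Kcna2, a pore of axons, read 17.6 to 35.2 at E13 and 33.1 to 95.8 at E16. Cacna1d, an L-type calcium pore, was detected on 1 of 5 E13 arrays and overlapped, at 4.7 to 20.9 at E13 and 15.4 to 44.5 at E16. Kcnh6 was detected on 4 of 5 E13 arrays and overlapped, at 12.9 to 68.7 and 32.3 to 182. Kcna3 and the dimmest Scn2b probe missed the count on a single E16 array and overlapped throughout.

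**Figure D4:**
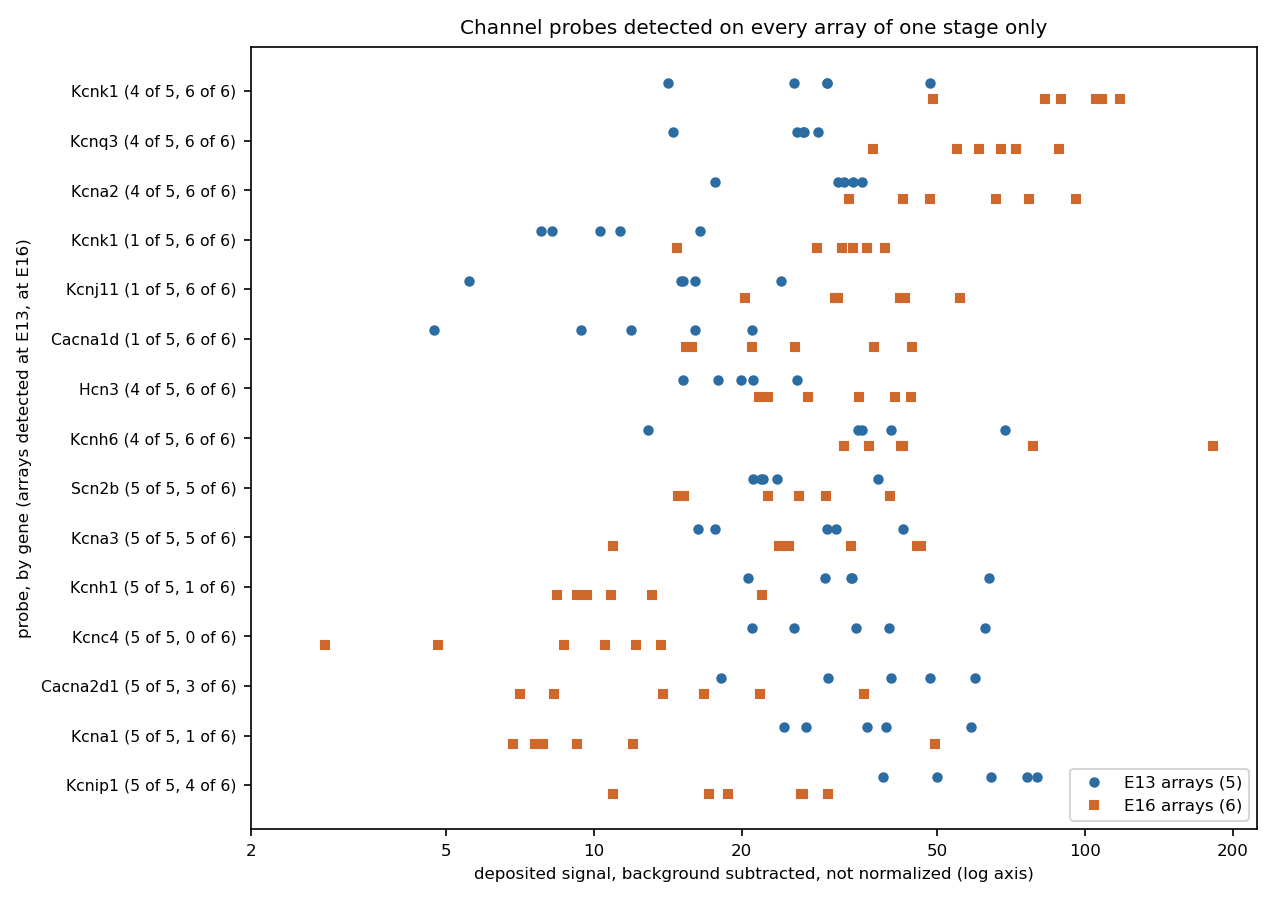
Deposited signal (log axis, background subtracted and not normalized) of the 15 channel probes detected on every array of 1 stage only, on each E13 array (circles) and each E16 array (squares); the labels give the number of arrays with detection. Kcnip1 and Kcnc4 lay higher at E13 and Kcnq3 and the brighter Kcnk1 probe higher at E16, without overlap. Each probe entered through the stage where it was detected on every array.

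Genes that work with these channels were listed apart, 49 in all (Kv4 and HCN partners, axon initial segment and node proteins, gamma subunits, the sodium pump, regulators), of which 45 were on the array and 23 were tested by their brightest detected probe. Of these 23, 4 were higher at E16, beside 5.31% of all genes measured this way, and 3 were lower, beside 6.97% of all genes. Their median log2 fold change was 0.06. Cacng5, a gamma subunit that mainly serves AMPA receptors, was at 18.4 to 74.6 at E13 and 205 to 789 at E16 (log2 fold change 3.36, SE 0.37, adjusted p = 3.3e-05). Nedd4l, a ubiquitin ligase for sodium channels, read 2370 to 3202 at E13 and 3870 to 4883 at E16 (log2 fold change 0.59, SE 0.10, adjusted p = 8.0e-04), close to the fold limit. Nfasc, an axon initial segment protein, was at 0.70 (SE 0.20, adjusted p = 0.0247). The sodium pump beta genes went opposite ways, Atp1b2 at 0.77 (SE 0.19, adjusted p = 0.0138) and Atp1b1 at -0.75 (SE 0.18, adjusted p = 0.0122).

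The sharpest falls among partners were those of Cntnap2, which clusters potassium channels beside nodes, and Dpp6, which carries Kv4 channels to the surface. Cntnap2 read 1613 to 4522 at E13 and 265 to 1611 at E16, with no overlap (log2 fold change -1.97, SE 0.40, adjusted p = 0.0037). Dpp6 read 368 to 570 at E13 and 101 to 275 at E16, also with no overlap (log2 fold change -1.54, SE 0.25, adjusted p = 6.4e-04), while its channel partner Kcnd2 was at 0.44 and 0.46 as above. The Nedd4l call was lost without E13 array 40 or 65, or without E16 array 11, 15 or 80. The Nfasc call was lost without E13 array 37 or 61, or without E16 array 11. With Xist detection as a covariate, Nfasc, Atp1b2 and Atp1b1 were not called.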

How the data were processed

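Per the labels and the study's methods, IPs were isolated by FACS from Tbr2 conditional knockout cortex at E13 (5 samples) and E16 (6 samples), and total RNA was hybridized to Illumina bead arrays. The authors deposited background-subtracted signal intensity per probe, not normalized between arrays, with values below 0 kept. The deposited detection p-values rank each probe against negative control beads. The authors also deposited a quantile-normalized table of 15825 probes, taken as log2 values because they lie on the scale of log2 signals, and used here as an alternative only. Its columns are named by sample, whereas the signal columns give stage and array number. The 22 per-sample columns of control arrays were not used here.

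Probes with a detection p-value under 0.05 on all 11 arrays (16411) were quantile-normalized, log2-transformed and fitted by stage with limma 3.58.1 (R 4.3.3; lmFit, eBayes with trend), with Benjamini-Hochberg adjustment over all of them. A difference over 1.5-fold with an adjusted p-value under 0.05 was called. Fold changes are E16 minus E13. Marker sums and mean log2 marker signals used quantile-normalized signals of all probes with a floor of 16. Values of channel genes are given per probe, though not every probe of a gene is named. Partner and marker genes are given by their brightest. Further probes of Kcnk2, Kcnh2, Cacnb4 and Kcnip1 were added after their detection was seen. Gene symbols are those of the platform annotation, in which 34885 of 45281 probes had 1 symbol, 18 several and 10378 none. The number of arrays, 5 and 6, limits the precision. The fit was also run on simulated data with independent normal noise and planted changes. Those data held no litter or cell type differences, so that run does not check the calls made here. The members and lists were chosen with earlier results of these data known. Named were all called channel probes, the brightest uncalled probe of each family, probes detected at only 1 stage, all HCN and KATP probes, genes whose probes disagreed, and called partner genes; Kcnab2, Kcnma1, Kcnn2, Kcnip3, Scn1a, Scn8a, Cacna1a, Cacna1b, Cacna1g, Cacnb1, Kcnmb4 and the other probes detected on all arrays of 1 stage were named after their values were seen. Alternatives (detection filter, normalization, background correction, test, array weights, replicate block, each array left out) are given in the closing section.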

Additional observations from a re-analysis of the deposited data

Results flagged for a closer look

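Of 86 sets of arrays checked (each 1 named or 1-stage channel probe at 1 stage), 7 had an array that lay far from the others of its stage, and about 1 in 20 sets would be marked by chance (4.3 of 86). On E16 array 15, Kcnh1 had a deposited signal of 22.0 (others 8.4 to 13.1) and Kcna1 one of 49.6 (others 6.8 to 12.01). On E16 array 95, Kcnh6 had a deposited signal of 182 (others 32.3 to 78.5). Deposited signals include array brightness, which was highest on array 95 at E16 and on array 65 at E13. On E13 array 40, the normalized signal of Kcnab3 was 28.9 (others 54.3 to 61.3) and the deposited signal of Kcna2 was 17.6 (others 31.4 to 35.2). On E13 array 65, the deposited signal of Kcnq3 was 14.5 (others 25.9 to 28.5) and that of Scn2b probe ILMN_1244207 was 37.8 (others 21.1 to 23.6).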

How the results depend on the processing

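Of 9 called channel probes, those of Abcc8, Kcnk2, Cacna2d3 and the Cacnb4 probe ILMN_1223194 kept their call in all 23 alternatives, and no called probe changed direction. Of 206 refitted values of called probes, 167 kept the call and 39 lost it. Admitting probes detected on all arrays of 1 stage gave 12 higher and 8 lower channel probes, since such probes enter through the stage where they are high. Without a fold limit, 1399 probes of the array were higher and 1544 lower. An unmoderated test gave 1 lower channel probe. No detection filter gave 2 higher partner genes. Xist detection as a covariate, chosen after seeing the data, gave 1 lower channel probe and 2 higher partner genes. Leaving out 1 array gave 4 to 7 higher and 1 to 4 lower channel probes, and 2 to 4 higher and 3 to 4 lower partner genes. The lower count was 1 without E13 array 37, 61 or 65 or without E16 array 91, and partners higher were 2 without E16 array 11. Over all probes, leaving out 1 array gave 667 to 868 higher and 839 to 1021 lower. The cause of these changes was not tested.

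Sign changes occurred only in uncalled probes near 0. With array weights, log2 fold changes turned to -0.0041 for Kcnk10, -0.11 for Kcna6, -0.019 for Kcnc1 and -0.044 for Cacna2d1 ILMN_2752030. Leaving out E13 array 40 together with E16 array 80 gave -0.010 for Kcnk10 and -0.055 for Kcnc1, and with Xist detection -0.015 for Kcnk10. Leaving out 1 array gave -0.090 to 0.14 for Kcnk10, -0.12 to 0.24 for Kcna6, -0.071 to 0.13 for Kcnc1, -0.24 to 0.0015 for Kcnn1, and -0.13 to 0.0091 and -0.00095 to 0.19 for the Scn2b probes ILMN_2451529 and ILMN_2935462.

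The labels give both stages replicate numbers, but same-numbered samples did not visibly deviate together (correlations -0.25 to 0.17 over 5 pairs, 1 of 5 best with its own number). The number was therefore not used as a pairing in the main fit, though 5 pairs are too few to exclude a shared origin. With the replicate block, in the authors' table, 5 channel probes were higher and 2 lower, 684 and 823 of all probes, and Kcna6 was at -0.016.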
